A study of Mus musculus with 15 samples.

Results

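The 10 genes described here serve protein folding in the endoplasmic reticulum (ER) and the unfolded protein response (UPR): Hspa5, Hsp90b1, Dnajb9, Sdf2l1, Pdia4, Pdia6, Xbp1, Herpud1, Creld2 and Manf. They were taken by name, as a set of widely used markers of ER stress, and all 10 were found among the 55291 genes of the deposited tables. Bulk RNA sequencing covered 15 samples in 5 groups of 3, all of them from HY19636, a line of murine pancreatic ductal adenocarcinoma (PDAC) labelled p53 mut. According to the study's methods the line was derived from the tumor of a B6 mouse that carried p53 L/+ and Ptf1a Cre+, so every group shared these alleles and came from the same primary line. Cells were cultured in DMEM with serum and were left as controls, exposed for 24 h to 25 µM 6-diazo-5-oxo-L-norleucine (DON, a glutamine analog that blocks many glutamine-using enzymes), or kept for 24 h without glutamine (Gln-free cells). Tumors had grown in the pancreas of syngeneic B6J mice and so also held host cells. The mice received vehicle or DRP-104, a compound that the body turns into DON. The daily dose was 3 mg per kg in 2 cycles, each with 5 treatment days followed by 2 days of rest, and the tumors were taken on day 21 after the transplantation. The study's methods describe its mice as female and between 8 and 10 weeks of age.

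The ER lumen is where secreted and membrane proteins fold, gain disulfide bonds and receive N-linked sugars. When unfolded proteins accumulate, the sensors IRE1, ATF6 and PERK raise the production of chaperones, of folding enzymes and of the machinery that removes misfolded proteins. IRE1 acts by splicing the Xbp1 mRNA, ATF6 is cleaved into a transcription factor, and PERK phosphorylates the initiation factor eIF2α, which favors translation of ATF4. Pancreatic tissue is known for a heavy secretory load, and glutamine feeds the hexosamine pathway that makes the sugar donor for N-glycosylation.

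XBP1 and ATF6 are known to act through the ER stress element, CCAAT followed by any 9 bases and CCACG. RefSeq promoter windows on GRCm38.p6, from 250 bases before to 50 bases after each transcription start, were matched by symbol for 9 of the 10 genes, and Manf had no entry. The element was searched in these exact letters on both strands. It was present in the windows of 4 of the 9 genes and in 0.119% of all 32851 windows. The matches are shown because this element is the one best known for this pathway. Each is written 5′ to 3′ along the strand of the element, with the fixed letters in capitals.
Hspa5: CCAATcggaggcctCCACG
Hsp90b1, near site: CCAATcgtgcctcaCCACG
Hsp90b1, far site: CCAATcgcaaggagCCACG
Pdia6: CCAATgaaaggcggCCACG
Creld2: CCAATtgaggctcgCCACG
The Hspa5 match lay on the + strand at chr2:34772025-34772043 and ended 47 bases before the start. The Hsp90b1 matches lay 89 and 194 bases before the start at chr10:86705533-86705551 and chr10:86705638-86705656, and only the far one read in the direction of the gene, which is on the - strand. The Pdia6 match ended 80 bases before the start at chr12:17266491-17266509, in the direction of the gene. The Creld2 match ended 108 bases before the start at chr15:88819520-88819538 and read against the gene.

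Element II, ATTGG followed by any base and CCACG, was present in 0.0365% of the windows and in 1 of the 9 genes. That gene was Herpud1, whose match lay at chr8:94386377-94386387 on the + strand, 42 bases before the start. Neither TGACGTGG, the letters known as the UPR element, nor TGATGCAAT, an amino acid response element known for binding ATF4, was present in these letters in the 9 windows, while 0.676% and 0.192% of all windows held them. The half-site CCACG, which is part of both ER stress elements, was held by 8 of the 9 genes against 32.8% of all windows. Hspa5, Hsp90b1, Pdia6, Creld2 and Herpud1 held it within the full elements above, and the Xbp1 window held none. With 1 of the 10 fixed letters of the ER stress element different, matches were present in Herpud1, Hsp90b1 and Pdia4, against 1.4% of all windows. The 300-base windows of 3 genes are shown in full, on the strand of the gene, because Hspa5 and Herpud1 differed in opposite directions between DON and Gln withdrawal and Dnajb9 had the largest rises. Capitals mark the ER stress element in Hspa5 (chr2:34771840-34772139, + strand), element II in Herpud1 (chr8:94386179-94386478, + strand) and both CCACG half-sites in Dnajb9 (chr12:44210019-44210318, - strand), in whose window no full element was found.
Hspa5: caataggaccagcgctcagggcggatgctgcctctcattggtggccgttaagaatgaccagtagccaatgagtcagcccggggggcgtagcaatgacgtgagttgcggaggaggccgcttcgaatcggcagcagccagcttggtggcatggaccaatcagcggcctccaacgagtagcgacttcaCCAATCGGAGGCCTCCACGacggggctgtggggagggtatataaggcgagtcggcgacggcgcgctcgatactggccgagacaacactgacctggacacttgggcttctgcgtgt
Herpud1: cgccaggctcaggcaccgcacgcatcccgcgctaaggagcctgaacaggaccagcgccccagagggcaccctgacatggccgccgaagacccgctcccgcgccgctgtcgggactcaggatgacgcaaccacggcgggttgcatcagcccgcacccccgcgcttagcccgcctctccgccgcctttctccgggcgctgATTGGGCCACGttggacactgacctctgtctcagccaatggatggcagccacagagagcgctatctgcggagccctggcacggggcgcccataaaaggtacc
Dnajb9: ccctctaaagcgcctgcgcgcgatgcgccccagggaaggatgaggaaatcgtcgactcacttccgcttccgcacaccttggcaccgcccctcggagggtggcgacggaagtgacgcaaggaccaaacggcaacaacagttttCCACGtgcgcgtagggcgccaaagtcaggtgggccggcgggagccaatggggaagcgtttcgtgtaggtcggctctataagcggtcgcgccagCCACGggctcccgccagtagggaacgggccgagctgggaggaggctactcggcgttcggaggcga
A match describes the letters of the window and shows neither binding nor control by a factor.

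**Figure D1:**
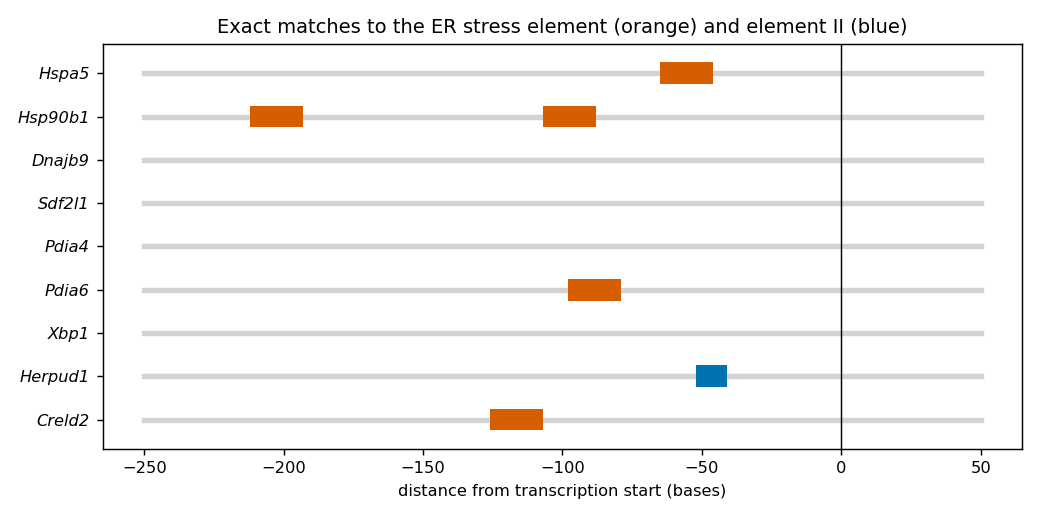
Position of exact matches to the ER stress element (orange) and element II (blue) in the promoter windows of 9 genes. The horizontal axis is the distance in bases from the transcription start, with the gene running to the right. The matches lay between 42 and 194 bases before the start at their near edge.

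The depth was 25224177 to 48155949 gene-assigned reads in the culture libraries and 16339957 to 20687784 in the tumor libraries. Control cells 3 was the deepest library. The values below are normalized counts, the read count of a gene divided by a size factor of its library, and each comparison used its own table. Because size factors were estimated within each table, the same control libraries have slightly different values beside DON and beside Gln withdrawal. Culture libraries of a group correlated across 13514 genes at 0.985 to 0.989 (Pearson's r of log2 values). DRP-104 tumor 3 stood apart from the other tumor libraries, with correlations of 0.887 to 0.935 across 15454 genes. In the culture libraries Adgre1, C1qb, C1qc and Lyz2 of the macrophage list, all 7 islet genes, and Cd3d, Cd3e and Cd3g of T cells were listed at 0. Other genes of these lists were not, and the 8 macrophage genes summed to 1173 to 2806 normalized counts. In each culture group 2 of the 8 macrophage genes and 2 of the 9 T cell genes averaged at least 10. These lists therefore do not mark host cells alone. Epithelial markers summed to 404861 to 524797 normalized counts in control cells, 119550 to 127808 after DON and 159382 to 174712 without Gln, and their part in the values below was not tested. All 8 epithelial markers averaged at least 10 normalized counts in the control cells and in both tumor groups.

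Without Gln, all 10 genes rose, and after DON 7 of the 10 rose. The strongest responses were those of Dnajb9 in both conditions and of Hspa5 without Gln. Of all genes tested, 34.5% rose without Gln (13390 genes) and 33.3% rose after DON (13556 genes) by limma at a Benjamini-Hochberg adjusted p under 0.05. All 3 treated values lay above all 3 control values for 10 of the 10 genes without Gln, against 36.4% of all genes, and for 7 of the 10 after DON, against 35.3%. The median log2 fold change of the 10 genes was 1.35 without Gln and 0.86 after DON, against 0.01 and 0.02 over all genes. Both comparisons share the 3 control libraries. The labels do not say that the samples of a culture group came from separate cultures, so these p-values measure the spread between these samples, which may be technical.

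**Figure D2:**
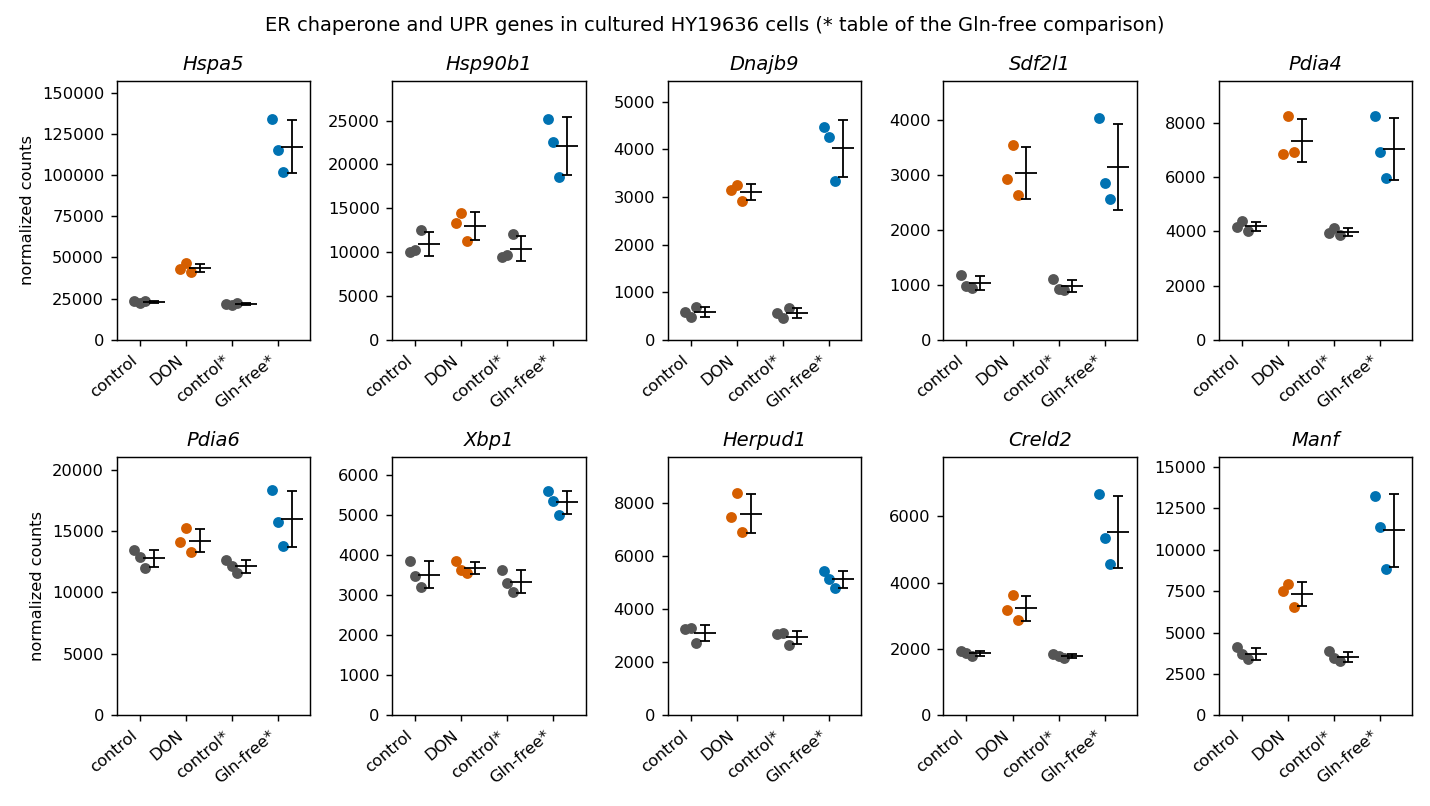
Normalized counts (vertical axes, from 0) of the 10 genes in cultured cells. Points are single libraries and black bars the mean with the SD of 3, and the columns marked with an asterisk come from the table of the Gln-free comparison. The Gln-free points of Hspa5, at 102075 to 133976, lie far above those after DON, at 41354 to 46433, while for Herpud1 the DON points are the highest.

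Hspa5 encodes BiP, the HSP70 chaperone of the ER lumen, which also binds the UPR sensors at rest. Its values were 23309, 22539 and 23347 normalized counts in control cells and 42834, 46433 and 41354 in DON-treated cells. In the other table they were 21967, 21290 and 22517 in control cells and 133976, 115171 and 102075 without Gln. The groups did not overlap in either comparison. Hspa5 rose 1.89-fold after DON (95% interval 1.64 to 2.16, adjusted p = 8.45e-07, limma) and 5.31-fold without Gln (4.54 to 6.21, adjusted p = 1.2e-09).

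Hsp90b1 encodes GRP94, the HSP90 chaperone of the ER. Its values were 10005, 10273 and 12517 normalized counts in control cells and 13261, 14405 and 11289 after DON, so that control cells 3 lay within the range of the treated cells. Without Gln they were 25174, 22515 and 18612 against 9429, 9704 and 12072, with no overlap. The gene rose 2.12-fold without Gln (1.77 to 2.55, adjusted p = 4.58e-06, limma) and stood at 1.19-fold after DON (1.00 to 1.40, adjusted p = 0.0635). The call after DON depended on single libraries, since the adjusted p fell below 0.05 without DON-treated cells 3 or without control cells 3. It also did so under quantile normalization, which shifted the all-gene median after DON from 0.02 to 0.13 on the log2 scale.

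Dnajb9 encodes ERdj4, a J-domain cochaperone of BiP. Per length it was the least expressed of the 10 genes in control cells. It stood there at 592, 482 and 686 normalized counts and at 3144, 3259 and 2926 after DON. Without Gln it stood at 4466, 4267 and 3339 against 558, 455 and 661. Its treated values lay well clear of the controls in both comparisons, and its fold changes of 5.34 after DON (4.44 to 6.42, adjusted p = 8.81e-10, limma) and 7.22 without Gln (5.83 to 8.94, adjusted p = 3.66e-09) were the largest of the 10 genes in each. Sdf2l1, an ER-lumenal partner of such cochaperones, rose 2.93-fold after DON (2.44 to 3.52) and 3.16-fold without Gln (2.53 to 3.95). Its values were 1180, 977 and 942 in control cells and 2925, 3557 and 2638 after DON. Without Gln they were 4034, 2850 and 2567 against 1112, 922 and 909, so both treatments left a similar range.

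Pdia4 and Pdia6 encode protein disulfide isomerases, enzymes that form and rearrange disulfide bonds. Pdia4 stood at 4175, 4369 and 4011 normalized counts in control cells and at 6873, 8275 and 6923 after DON. Without Gln it stood at 8260, 6954 and 5969 against 3935, 4126 and 3868. It rose to nearly the same extent in both conditions, 1.75-fold (1.52 to 2.02) and 1.76-fold (1.5 to 2.07), with adjusted p = 3.83e-06 and 1.98e-05 (limma). Pdia6 changed less, with 13447, 12862 and 12028 in control cells against 14099, 15206 and 13324 after DON, where the groups overlapped. Its values without Gln were 18366, 15748 and 13798 against 12673, 12149 and 11600. It rose 1.31-fold without Gln (1.12 to 1.52, adjusted p = 0.00448) and stood at 1.11-fold after DON (0.97 to 1.27, adjusted p = 0.148), where quantile normalization made the call as well. Exons of Pdia6 overlap those of Atp6v1c2 on the other strand, and the use of strand in counting is not given in the sources used here.

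Xbp1 encodes the transcription factor whose mRNA IRE1 splices, and gene counts do not separate the spliced form from the unspliced form. Its values were 3870, 3497 and 3200 normalized counts in control cells and 3869, 3635 and 3563 after DON, within the same range. Without Gln they were 5603, 5366 and 5023 against 3647, 3303 and 3086. Total Xbp1 thus rose 1.60-fold without Gln (1.40 to 1.82, adjusted p = 1.92e-05, limma) and stood at 1.05-fold after DON (0.91 to 1.21, adjusted p = 0.519). Herpud1 encodes an ER membrane protein of ER-associated degradation. It stood at 3267, 3283 and 2750 in control cells and at 7501, 8386 and 6933 after DON. Without Gln it stood at 5462, 5145 and 4822 against 3079, 3101 and 2652. Its rise was 2.45-fold after DON (2.11 to 2.85, adjusted p = 6.47e-08) and 1.75-fold without Gln (1.53 to 2.00, adjusted p = 4.92e-06).

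Creld2 and Manf encode ER stress-induced proteins that reside in the ER and can be secreted. Creld2 stood at 1949, 1883 and 1792 normalized counts in control cells and at 3180, 3626 and 2857 after DON. Without Gln it stood at 6672, 5334 and 4551 against 1837, 1779 and 1728. It rose 1.71-fold (1.47 to 1.99, adjusted p = 1.16e-05, limma) and 3.06-fold (2.56 to 3.66, adjusted p = 1.12e-07). Manf followed the same order, with 4106, 3699 and 3383 in control cells against 7536, 7920 and 6546 after DON. Without Gln its values were 13272, 11371 and 8869 against 3870, 3494 and 3262. The rise of Manf was 1.97-fold after DON (1.69 to 2.29, adjusted p = 1.14e-06) and 3.12-fold without Gln (2.58 to 3.78, adjusted p = 1.72e-07). Exons of Manf overlap those of Dcaf1, Rbm15b and 4930524O07Rik, so reads of these genes could be shared. The same holds for Hsp90b1 with 1810014B01Rik, Gm15344 and Gm25745, for Dnajb9 with Mir5627 and for Pdia4 with Mir704.

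**Figure D3:**
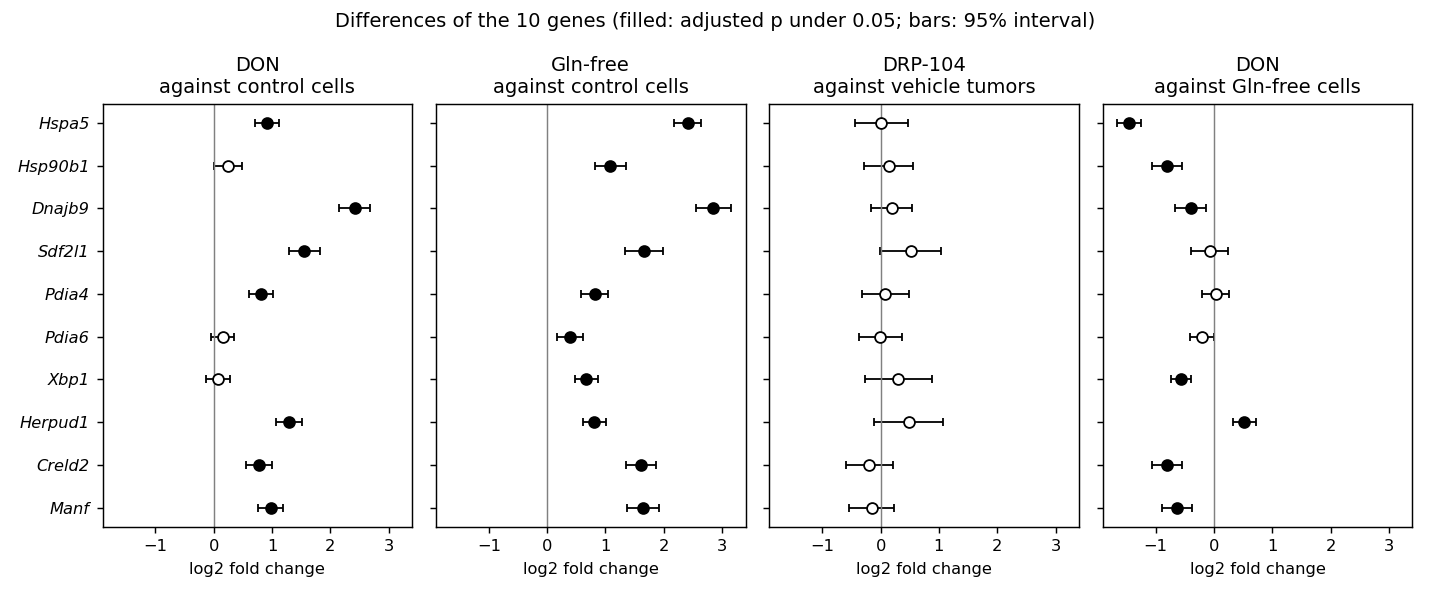
Log2 fold change (horizontal axes, the same scale in each panel) of the 10 genes in 4 comparisons, with 95% intervals. Filled points have an adjusted p under 0.05. All 10 points are filled for Gln-free against control cells, 7 for DON against control cells, none for the tumors and 7 for DON against Gln-free cells.

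DON and Gln withdrawal were then compared with each other at the matched time of 24 h, on reads of the 9 culture libraries scaled together. Of the 10 genes, 6 were lower after DON than without Gln and 1 was higher, against 32.3% and 31.0% of 13514 genes. Hspa5 differed most, at a log2 difference of -1.46 (-1.66 to -1.26, adjusted p = 5.17e-09, limma), followed by Creld2 at -0.81 and Hsp90b1 at -0.80. Manf differed by -0.63, Xbp1 by -0.57 and Dnajb9 by -0.40, the last with an adjusted p of 0.0118. Herpud1 was the gene that was higher after DON, by 0.52 (0.33 to 0.71, adjusted p = 0.00013). Sdf2l1 did not pass the test at -0.08 (-0.39 to 0.24), and neither did Pdia4 at 0.03 (-0.20 to 0.25) or Pdia6 at -0.20 (-0.41 to 0.00). Dnajb9 lost its call without Gln-free cells 1 (log2 difference -0.32, adjusted p = 0.0667) or without Gln-free cells 2 (-0.35, adjusted p = 0.0531), and under quantile normalization (-0.29, adjusted p = 0.0631). Pdia6 gained a call without Gln-free cells 3 (-0.30, adjusted p = 0.0141), without control cells 3 (-0.20, adjusted p = 0.0434) and with the replicate block (-0.20, adjusted p = 0.0195).

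Levels were compared between genes as reads scaled to the gene length and to the reads of the library (RPKM), with the gene lengths of the authors' table. Hspa5 led in every group, at 267 ± 16.7 RPKM in control cells, 556 ± 31.3 after DON and 1532 ± 198 without Gln (SD, n = 3). Pdia6 was next in control cells at 177 ± 3.76, ahead of Hsp90b1 at 103 ± 18.4. Pdia4 (51.0 ± 1.37), Manf (50.04 ± 3.08), Xbp1 (49.9 ± 2.97) and Herpud1 (47.9 ± 2.45) followed, and each differed from the next by less than the larger of their SDs. Without Gln the order behind Hspa5 was Pdia6 (251 ± 34.1), Hsp90b1 (235 ± 33.2), Manf (170 ± 32.3) and Creld2 (138 ± 25.9), and Pdia6 and Hsp90b1 did not differ beyond their spread. After DON, Herpud1 moved up to the fourth place, at 130 ± 11.96. The 10 genes together took 0.196% ± 0.00974 of all reads in control cells, 0.354% ± 0.0258 after DON and 0.672% ± 0.0902 without Gln. In the last group Hspa5 alone took 0.400% ± 0.0518.

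The genes whose log2 values over the 9 culture libraries followed Hspa5 most closely were Ankrd1 (Pearson's r = 0.998), Hspa9 (0.997), Nudt4 (0.997), Myc (0.995) and Fez2 (0.994), of 10431 genes compared. These coefficients describe 3 conditions of 3 libraries each and carry no test. Among the 10 genes, Creld2 was nearest to Hspa5 at 0.983, and Herpud1 was farthest at 0.488. Hspa9 encodes the mitochondrial HSP70.

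The members are a small part of the ER machinery, and 74 further genes of ER folding were listed by role. After DON 31 of them rose, 21 fell and 22 did not pass the test, with a median log2 fold change of 0.04. These are 41.9% and 28.4% of the list, against 33.3% and 34.7% of all genes. Without Gln 34 rose and 11 fell, with a median of 0.19, or 45.9% and 14.9% of the list against 34.5% and 34.9% of all genes. The count of falls without Gln rested on the deepest library, and 21 genes fell when control cells 3 was left out.

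ER-associated degradation was the role with the largest share of rises in both comparisons. Of its 14 genes 10 (71.4%) rose after DON and 11 (78.6%) rose without Gln, against 33.3% and 34.5% of all genes. The medians were 0.34 and 0.68. Derl3, a derlin of this pathway, went from 10.1 ± 4.39 to 209 ± 37.5 normalized counts after DON, which is 4.30 on the log2 scale (adjusted p = 5.58e-08, limma). Without Gln it reached 61.2 ± 6.11 (2.62, adjusted p = 4.84e-05). Among lumenal chaperones and cochaperones, 7 of 12 (58.3%) rose after DON and 8 of 12 (66.7%) without Gln. Cdnf, the paralog of Manf, rose by 2.57 and 2.81 on the log2 scale. Creld1, the paralog of Creld2, fell by 1.39 after DON and by 0.92 without Gln, in the opposite direction to Creld2.

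Of 8 genes of export, retrieval and calcium handling, 0 rose and 5 (62.5%) fell after DON, against 33.3% and 34.7% of all genes. Without Gln 3 (37.5%) rose and 2 (25.0%) fell, near the 34.5% and 34.9% of all genes. Sec24d, a coat subunit of vesicles that leave the ER, fell from 4016 ± 318 to 968 ± 56.6 after DON (log2 fold change -2.05, adjusted p = 4.31e-10, limma). Without Gln it stood at 3738 ± 309 against 3815 ± 268 (-0.03, adjusted p = 0.783), and the difference between the treatments passed the test (-1.99, adjusted p = 1.05e-10). Creb3l2, an ATF6-like membrane-bound transcription factor, showed the same pattern, with -1.51 after DON and 0.19 without Gln (adjusted p = 0.0943) and a difference of -1.66 (adjusted p = 2.3e-08). Kdelr1, a receptor that returns chaperones such as BiP to the ER, fell by 0.46 after DON and by 0.66 without Gln.

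Of 11 disulfide and prolyl isomerases, 5 (45.5%) rose and 4 (36.4%) fell after DON, and 3 (27.3%) rose and 2 (18.2%) fell without Gln. Among all genes, 33.3% rose and 34.7% fell after DON, and 34.5% and 34.9% did so without Gln. Ero1lb, the oxidase that recharges disulfide isomerases, rose by 1.95 on the log2 scale after DON and by 1.07 without Gln. Txndc5, a member of the disulfide isomerase family, fell by 0.85 and 0.78. Of 20 genes of translocation and N-glycosylation, 5 rose and 8 fell after DON and 6 rose and 2 fell without Gln. Serp1, a stabilizer of the translocon, had the third largest rise of the list without Gln, from 7787 ± 979 to 23376 ± 1339 (1.59, adjusted p = 2.38e-08, limma), and rose by 0.92 after DON. Of 9 sensors and their proteases, 4 (44.4%) rose and 2 (22.2%) fell after DON, and 3 (33.3%) rose and 1 (11.1%) fell without Gln.

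**Figure D4:**
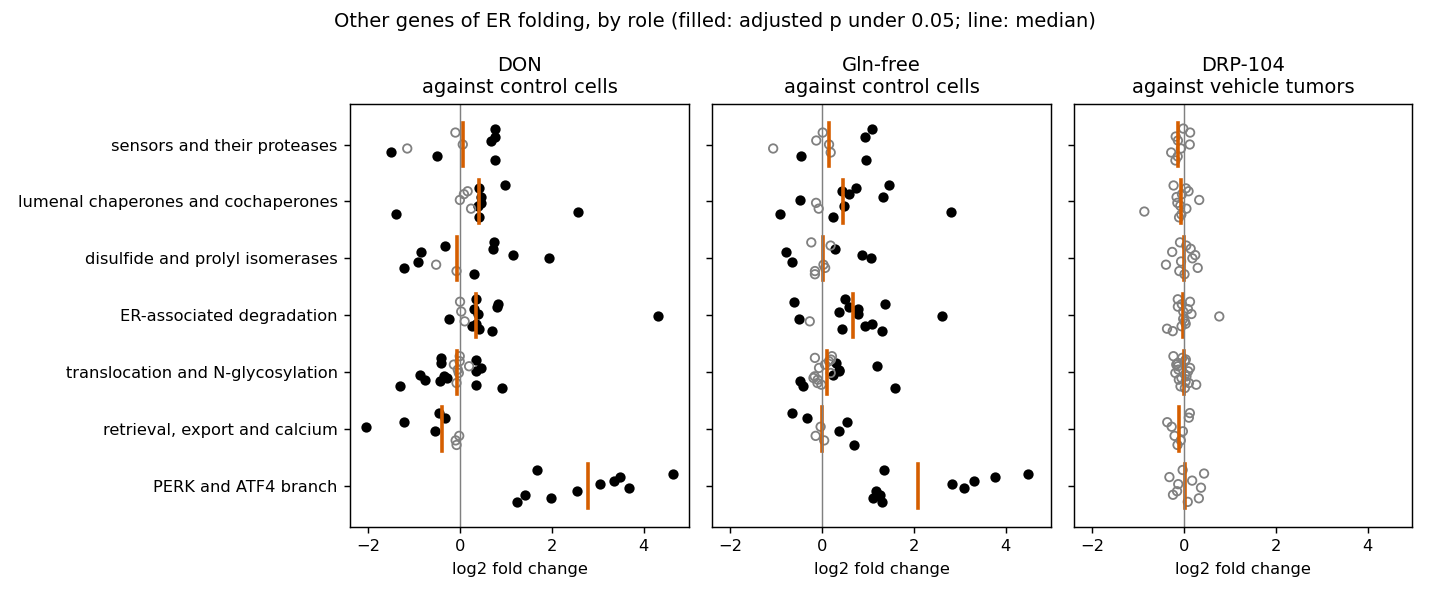
Log2 fold change (horizontal axes) of the 74 further ER genes by role and of 10 genes of the PERK and ATF4 branch. Filled points have an adjusted p under 0.05 and orange lines are medians. The PERK and ATF4 branch stands to the right of 0 in both culture comparisons, at medians of 2.79 and 2.08, and no point is filled in the tumors.

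All 10 genes of the PERK and ATF4 branch rose in both culture comparisons, against 33.3% of all genes after DON and 34.5% without Gln. Their medians were 2.79 after DON and 2.08 without Gln. Ddit3, which encodes the transcription factor CHOP, rose by 4.64 and 4.48 on the log2 scale. Atf4 rose by 1.67 and 1.35, and Ppp1r15a, which encodes a subunit of the eIF2α phosphatase, by 3.48 and 3.77. This branch can also be entered through sensors of amino acid shortage and not only from the ER. The difference between the treatments was 0.19 for Ddit3 (adjusted p = 0.0733, limma), 0.35 for Atf4 (adjusted p = 0.000886) and -0.26 for Ppp1r15a (adjusted p = 0.00733). These 3 were smaller than that of Hspa5, but the branch as a whole reached further, with differences from -0.26 to 1.40. Of its 10 genes, 5 were higher after DON than without Gln and 1 was lower, against 31.0% and 32.3% of all genes.

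Chaperones of the cytosol and of mitochondria were followed beside those of the ER. Among all genes, 33.3% rose and 34.7% fell after DON, and 34.5% and 34.9% did so without Gln. Of 13 cytosolic heat shock genes tested, 0 rose and 9 (69.2%) fell after DON, and 2 (15.4%) rose and 7 (53.8%) fell without Gln. Hspa8, the constitutive HSP70 of the cytosol, fell by 1.46 on the log2 scale without Gln (adjusted p = 3.4e-08, limma) and stood at 0.12 after DON (adjusted p = 0.391). Hsp90ab1 fell by 1.06 without Gln and stood at 0.12 after DON (adjusted p = 0.391), while Hsp90aa1 rose by 0.65 without Gln and stood at -0.24 after DON (adjusted p = 0.0997). These 3 were not among the 9 that fell after DON. The cytosolic list had a median of -0.61 after DON, from -3.57 to 0.12, and of -0.36 without Gln, from -3.83 to 0.65. Of 10 mitochondrial chaperones and proteases, 9 rose and 1 fell after DON, and 6 rose and 1 fell without Gln. Hspa9 rose by 0.45 and 1.25. Hspd1 and Hspe1, which form the mitochondrial chaperonin, rose by 0.24 and 0.47 after DON and stood at 0.04 and -0.11 without Gln (adjusted p = 0.705 and 0.311).

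Genes that hold the exact ER stress element in their promoter window were followed as a description, with no test. Windows were matched by symbol. Ero1b, which holds the element, is therefore absent from the counts and medians of tested genes below, because its values are listed as Ero1lb. Of 27025 genes with a window 37 held it, and 15 of these were tested in the Gln-free comparison, 13 of which rose and 2 of which fell, where 34.5% of all genes rose. Their median log2 fold change was 0.78, against 0.01 over all genes. Without the members, 9 of 11 rose, at a median of 0.75. After DON 8 of 16 rose and 2 fell, where 33.3% of all genes rose, at a median of 0.28, and without the members 6 of 12 rose, at 0.24. Beside the members, the genes with the element included Derl3, Dnajc3, Alg12, Calr, Canx and Syvn1, all of the ER and named after their values were seen. Rises were not limited to such genes. Zfp57 (0.80), Pan2 (0.51) and Spats2l (0.45) also rose without Gln, and Gm6566 (1.39) rose after DON. The genes with the element that fell were Spats2l (-2.40) and Hnrnpa3 (-0.77) after DON, and Adcy3 (-1.29) and Hnrnpa3 (-0.36) without Gln. Canx rose by 0.44 without Gln and stood at 0.17 after DON (adjusted p = 0.136, limma).

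In the tumors none of the 10 genes passed the test, and 0.0% of 15454 genes did. At an unadjusted p under 0.05 there were 775 genes, and the smallest adjusted p was 0.816 (limma). edgeR called 0 genes and DESeq2 called 55, and none of the 10 was among the genes called by either. In bulk samples, fewer cells of a type and less RNA per cell cannot be told apart. The 10 genes had a median log2 fold change of 0.11 against -0.01 over all genes.

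**Figure D5:**
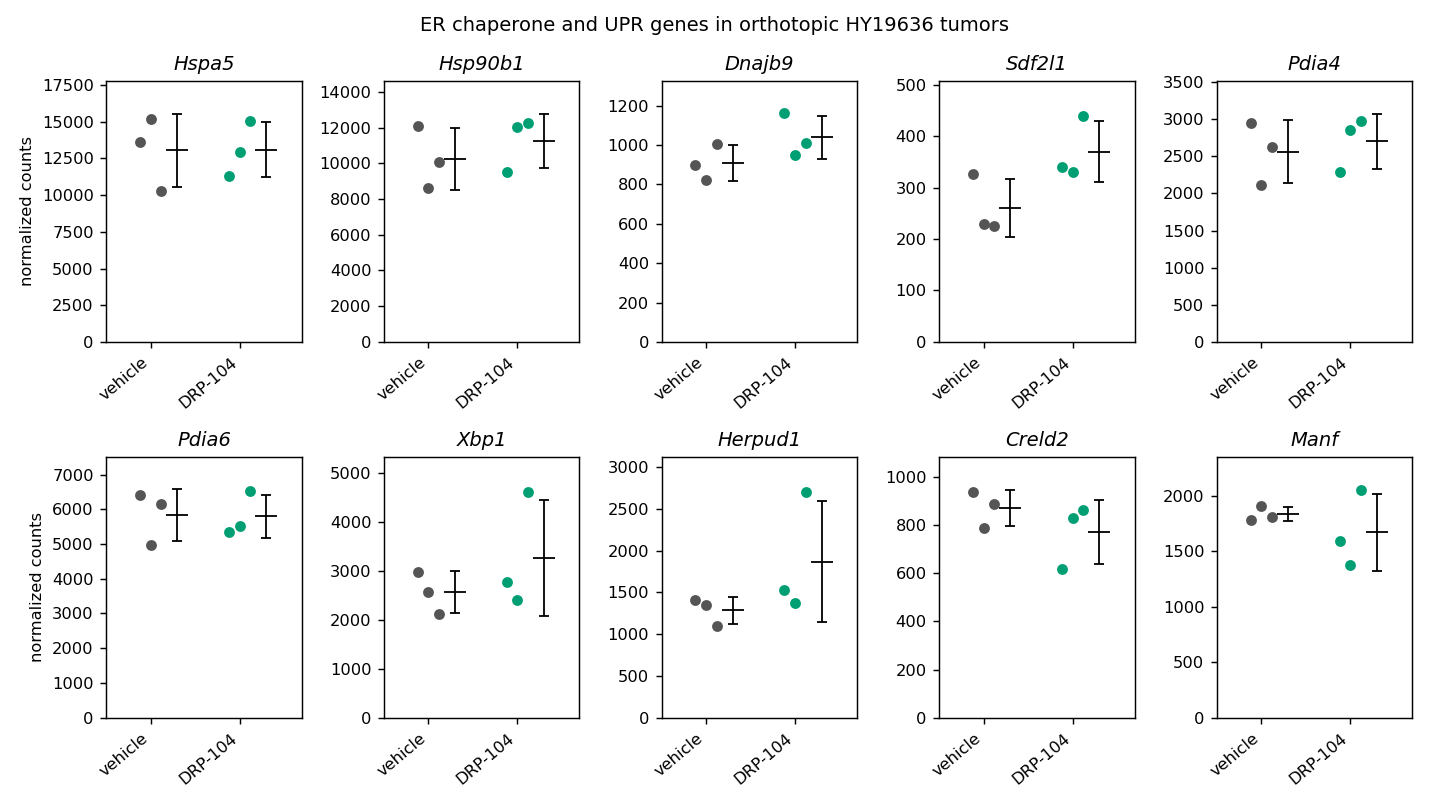
Normalized counts (vertical axes, from 0) of the 10 genes in the tumors. Points are single tumors and black bars the mean with the SD of 3. The groups overlap for 9 of the 10 genes, and for Xbp1 and Herpud1 DRP-104 tumor 3 lies above the other 5 tumors.

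Hspa5 stood at 13644, 15176 and 10306 normalized counts in vehicle tumors and at 11305, 12922 and 15033 in DRP-104 tumors, with full overlap. Its fold change was 1.01, with a 95% interval of 0.73 to 1.39. Dnajb9, the gene with the largest rises in culture, stood at 898, 824 and 1004 against 1160, 949 and 1008 and had an interval of 0.90 to 1.46. These intervals do not reach the rises seen in culture, which were 1.89- and 5.34-fold after DON. The intervals of Creld2 (0.66 to 1.16) and Manf (0.69 to 1.18) did not reach their culture rises either. That of Herpud1 (0.93 to 2.10) did not reach its 2.45-fold rise after DON and included its 1.75-fold rise without Gln. That of Xbp1 (0.83 to 1.85) included both its 1.05-fold value after DON and its 1.60-fold rise without Gln.

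Sdf2l1 was the member whose DRP-104 values all lay above the vehicle values, with 340, 331 and 439 against 326, 230 and 225 normalized counts, and 4.83% of all genes showed this. Its fold change was 1.43 (0.99 to 2.06), and the adjusted p was 0.916 (limma). Herpud1 stood at 1524, 1373 and 2696 in DRP-104 tumors against 1403, 1353 and 1095, and Xbp1 at 2767, 2407 and 4615 against 2981, 2574 and 2125. The highest value of both was that of DRP-104 tumor 3. Without this tumor the log2 fold change of Herpud1 went from 0.48 to 0.18 and that of Xbp1 from 0.30 to 0.03. Hsp90b1, Pdia4 and Pdia6 had fold changes of 1.10, 1.06 and 1.00, and Creld2 and Manf of 0.88 and 0.90, with no adjusted p under 0.925 among these 5.

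DRP-104 tumor 3 also differed in markers of other cells. The 9 T cell markers summed to 1500 normalized counts in it and to 47.3 to 100 in the other 5 tumors, and all 9 averaged at least 10 in the DRP-104 group. The immunoglobulin genes Igkc and Ighm, which plasma cells and their precursors express, stood at 1240 and 651 in it, at 1696 and 1189 in vehicle tumor 1, and at 75.9 or less in the other tumors. Jchain, Igha and Pou2af1 of the same list were also highest in these tumors. The rest of that list did not follow. Tnfrsf17 was at 0 in all 6, Mzb1 was at 0 in every DRP-104 tumor, and Sdc1 was lowest in DRP-104 tumor 3, at 16220 against 21490 to 24430 in the other 5 tumors. Acinar markers, of which Amy2a5 was at 0 in all 6, summed to 216 to 1127 in DRP-104 tumors and to 167 to 3286 in vehicle tumors. Fibroblast markers summed to 18669 to 32668 in DRP-104 tumors and to 39374 to 83380 in vehicle tumors, with no overlap. Gene by gene, Dcn, Lum, Pdgfrb and Fap overlapped between the groups and the others of the list did not. None of the 9 passed the test. The paper's staining showed no significant difference in fibroblast subsets after DRP-104. The part of these cells in the values of the 10 genes was not tested.

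The authors also deposited tumor values as FPKM, fragments scaled in the same way, in columns that cannot be assigned to single tumors above. Deviations from the group mean correlated at -0.141 to 0.227 with those of the same-numbered tumor, across 12703 genes. Whether the columns come from the same libraries is not known. None of the 10 genes passed the test in them either. The DRP-104 column 1 stood apart, with correlations of 0.936 to 0.950 with the other columns, which correlated with each other at up to 0.990. In it Dnajb9 was at 6.38 FPKM, against 21.7 to 26.0 in the other 5 columns, and Creld2 at 75.3, against 39.7 to 44.9. In the normalized-count table neither gene had a DRP-104 tumor that far from the other tumors. Xbp1 and Herpud1 ranged from 80.1 to 96.4 and from 35.3 to 38.2 FPKM in the DRP-104 columns, against 73.2 to 87.4 and 32.8 to 37.9 in the vehicle columns.

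Whether the tumor response differed from the culture response was tested as the difference of the log2 fold changes over 12 libraries. The DRP-104 effect was lower than the DON effect for 7 of the 10 genes, against 14.0% of 15070 genes. It was lower than the Gln-free effect for 7 of the 10, against 18.1% of 14979 genes. All of these members had risen in the culture comparison concerned, and no gene passed the test in the tumors. The counts therefore largely restate the rises in culture, and the shares of all genes include genes that did not rise there. The difference was largest for Dnajb9, at -2.22 from DON (-2.66 to -1.79, adjusted p = 5.28e-06, limma) and -2.66 from Gln withdrawal (-3.14 to -2.18, adjusted p = 3.3e-06). For Hspa5 it was -0.90 (adjusted p = 0.00595) and -2.39 (adjusted p = 9.84e-06). Pdia6 did not pass in either comparison, at -0.16 (-0.54 to 0.22) and -0.39 (-0.81 to 0.02), and Xbp1 did not at 0.23 (-0.37 to 0.84) and -0.37 (-0.97 to 0.24). Dose, route, duration and cellular make-up differed between culture and tumor along with the treatment, and their parts cannot be told apart. In RPKM, the level of Hspa5 was 267 ± 51.3 in vehicle tumors and 267 ± 16.7 in control cells, and that of Dnajb9 was 26.1 ± 2.77 and 9.56 ± 2.09 (SD, n = 3).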

How the data were processed

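RNA of 9 culture samples and 6 tumors was sequenced. According to the study's methods, Novogene prepared the libraries, aligned reads with HISAT2 and ran DESeq2; the submitters' processing notes also name CASAVA, STAR 2.5 and the build GRCm39, while coordinates in the FPKM table follow GRCm38. The counting tool, annotation and use of strand are not given in the sources used here. The signal deposited by the authors in 3 tables is the gene count divided by 1 size factor per library, estimated within each table. The authors' FPKM values are normalized for gene length and library size. Columns of the authors' own fold changes and p-values were not used. The control columns carry a vehicle-type name and were assigned to the control cells as a group, from the comparison their tables are named for. Both culture tables held the same control reads for all 55291 genes.

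Normalized counts were tested with limma 3.58.1 (R 4.3.3) with an intensity trend, on log2(value + 1), for genes with a mean of at least 10, and p-values were adjusted by Benjamini-Hochberg over all genes tested, with a threshold of 0.05. A fold change on this scale understates the change of low genes. Division by the worth of 1 read gave whole counts for at least 99.9946% of values per library (tolerance 0.0051). These reads were scaled together for DON against Gln-free cells, and were used for edgeR 4.0.16 and DESeq2 1.42.0 as alternatives. The differences between tumor and culture effects used the deposited normalized counts, with tumors and cultures each scaled within their own table. RPKM used the table's gene lengths. Intervals are at 95%. The script was tested on simulated data. The members and lists were chosen with earlier results of these data known. Named besides the members are the 3 largest rises and falls of the ER list per comparison, the first 3 genes of each other list and the 5 genes most like Hspa5 (mean of at least 100). Alternatives were other pseudocounts (0.5, 10), filters (none, 50), quantile normalization, a threshold of 0.01, leaving out each library, a replicate block and the FPKM table (mean of at least 0.5). Leaving out each FPKM column, the searches for the CCACG half-site and for near matches, and the list of genes with the element were added after seeing the data. One further engineered allele of the line is not reported here.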

Additional observations from a re-analysis of the deposited data

Results flagged for a closer look

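The difference between the DRP-104 effect in tumors and a culture effect passed the limma test of that difference for 14 gene and treatment pairs, and each is given as a log2 difference. Against DON it was -0.90 for Hspa5, -2.22 for Dnajb9, -1.04 for Sdf2l1, -0.73 for Pdia4, -0.82 for Herpud1, -0.97 for Creld2 and -1.13 for Manf. Against Gln withdrawal it was -2.39 for Hspa5, -0.95 for Hsp90b1, -2.66 for Dnajb9, -1.15 for Sdf2l1, -0.73 for Pdia4, -1.81 for Creld2 and -1.79 for Manf. The weakest of these was Herpud1 against DON (adjusted p = 0.0447), which missed the threshold in 13 of 18 alternatives, with adjusted p from 0.000338 to 0.104. Without DRP-104 tumor 3, Herpud1 and Xbp1 also passed against Gln withdrawal, at -0.63 (adjusted p = 0.0108) and -0.65 (adjusted p = 0.0134). Treatment, dose, duration and setting differ together between these arms and cannot be told apart.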

How the results depend on the processing

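Over the alternatives run, 7 to 9 of the 10 genes rose after DON, all 10 rose without Gln, 0 passed in the tumors and 6 to 8 differed between DON and Gln withdrawal. The difference between tumors and culture passed for 5 to 7 genes against DON and 6 to 9 against Gln withdrawal. In the tumors DESeq2 called 55 genes in all, and leaving out an FPKM column called 0 to 1. Quantile normalization turned Pdia6 in the tumors to 0.030 and Sdf2l1 between the treatments to 0.032, and moved the all-gene median of the tumor minus DON difference from -0.02 to -0.13. The FPKM table turned Hsp90b1 to -0.053, Dnajb9 to -0.562, Pdia4 to -0.093 and Creld2 to 0.319 in the tumors, none past the threshold. Its columns could not be matched to these libraries, so it may differ in more than the processing. Leaving out single libraries or FPKM columns (the columns were added after seeing the data) turned log2 fold changes in the tumors, which ranged from -0.147 to 0.138 for Hspa5, -0.123 to 0.263 for Hsp90b1, -0.890 to 0.267 for Dnajb9, -0.123 to 0.200 for Pdia4, -0.188 to 0.065 for Pdia6, -0.016 to 0.667 for Herpud1 and -0.280 to 0.452 for Creld2. Leaving out single libraries also turned the difference of DON from Gln withdrawal for Sdf2l1 (-0.210 to 0.116) and Pdia4 (-0.089 to 0.145) and that of tumors from DON for Hsp90b1 (-0.228 to 0.014) and Xbp1 (-0.045 to 0.424). The causes were not tested. No paired analysis was made for DON or Gln-free against control cells, because the control columns were assigned to the control cells only as a group. Same-numbered samples did not deviate together (correlations of -0.274, 0.0379 and -0.365 in tumors and -0.0253, 0.00284 and 0.0715 in cells). With the replicate block 0 of the 10 genes passed in the tumors and 8 differed between DON and Gln withdrawal, Pdia6 being added. The planned comparison of protein ends was not run. At 16339957 to 20687784 reads and 3 tumors a group, the intervals of the 10 genes set what could be seen.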
